A study of Arabidopsis thaliana with 4 samples.

Results

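Sulfate uptake and assimilation were followed through 8 genes of Arabidopsis thaliana among the 27654 listed for the series. They were taken by identifier: the root sulfate transporter genes SULTR1;1 (AT4G08620) and SULTR1;2 (AT1G78000), the adenosine phosphosulfate reductase genes APR1 (AT4G04610), APR2 (AT1G62180) and APR3 (AT4G21990), and the sulfur-shortage genes SDI1 (AT5G48850), LSU1 (AT3G49580) and LSU2 (AT5G24660). All 8 were listed, all passed the filter on low values, and the reference gene table gives the same names. RNA came from whole seedlings of the Columbia ecotype in 2 groups, the fip1-2 mutant and a control line that carries the SKP2B::GUS reporter, in which the SKP2B promoter drives the GUS enzyme. Both were grown on Murashige and Skoog medium, for a time given as 8 without a unit, and each group had 2 libraries. The labels give neither the kind of mutation in fip1-2 nor whether it carries the reporter, and no label ties a replicate to its own culture, so p-values measure only the spread between these libraries, which may be technical. The series title names the polyadenylation factor FIP1, plant development and root stress responses; here the question is how transcript levels of sulfate nutrition differ between the mutant and the control line.

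Plants take up sulfur as sulfate, which high-affinity transporters of the root surface bring into the cell. ATP sulfurylase activates it to adenosine phosphosulfate (APS), APS reductase turns that into sulfite, and sulfite reductase makes sulfide, which O-acetylserine thiol lyase joins to O-acetylserine to form cysteine; APS kinase takes APS aside to sulfated compounds such as glucosinolates. In Arabidopsis the transporters, the reductases and the SDI1 and LSU genes are known to be induced when sulfur runs short, and APS reductase is regarded as a main control point of the pathway.

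The libraries held 20908391 and 20874114 reads on genes in fip1-2, against 21056064 and 21104606 in control. Values are normalised read counts, and differences are log2 fold changes, fip1-2 over control, on the scale of log2(value + 2), with their standard error (SE) and the Benjamini-Hochberg adjusted p of limma over the 19931 genes tested. A gene is called past an adjusted p of 0.05. Over all genes 53.8% were called, 27% higher and 26.8% lower in fip1-2, and a median called gene differed 1.39-fold, so a call of this kind was common. Longer transcripts tended to have higher log2 fold changes (Spearman rho 0.299 over 19819 genes, which share the 4 libraries), so genes are also set beside their class of transcript length, from class 1 (shortest) to class 10 (longest), each of equal gene number. FIP1 itself stood at 5217 and 5145 in fip1-2, against 1796 and 1912 in control. It was higher in the libraries labelled fip1-2, and since the kind of mutation is not stated its level does not check those labels. Summed markers of root epidermis and root hairs (6 genes, 5 of them higher and none lower) reached 8526 and 6800 in fip1-2, against 2727 and 2733 in control. PRP3 alone gave 4780 and 3860 of this sum in fip1-2, against 1159 and 1187 in control. COBL9 and RBOHC were only 1.31-fold and 1.13-fold higher. Summed markers of shoot photosynthesis (5 genes, 3 higher and 1 lower) reached 440704 and 461533, against 347297 and 343946. RBCS1A, the largest part of this sum, was only 1.10-fold higher and was not called, and CA1 was 1.42-fold lower. LHCA1, PSBO2 and RCA were 1.63-fold to 1.70-fold higher. Summed markers of seed reserves (5 genes, all higher) reached 4815 and 1879, against 251 and 63.1. No marker was at 0 in a library. In bulk seedlings, fewer cells of a type and less RNA per cell cannot be told apart.

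The 8 genes did not move together. Of them 2 rose (SULTR1;2 and APR2), 3 fell (SULTR1;1, APR1 and APR3) and 3 did not pass (SDI1, LSU1 and LSU2). That is 62.5% called, near the 53.8% over all genes, and the median log2 fold change was -0.22, against -0.0043 over all genes tested. The fip1-2 and control libraries did not overlap for 6 of the 8 genes, against 77.2% of all genes, with 2 higher in fip1-2 (38.2% of all genes) and 4 lower (39% of all genes). A call did not follow the size of the change, since LSU1 at -0.38 did not pass while APR2 at 0.23 and APR3 at -0.23 did.

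**Figure D1:**
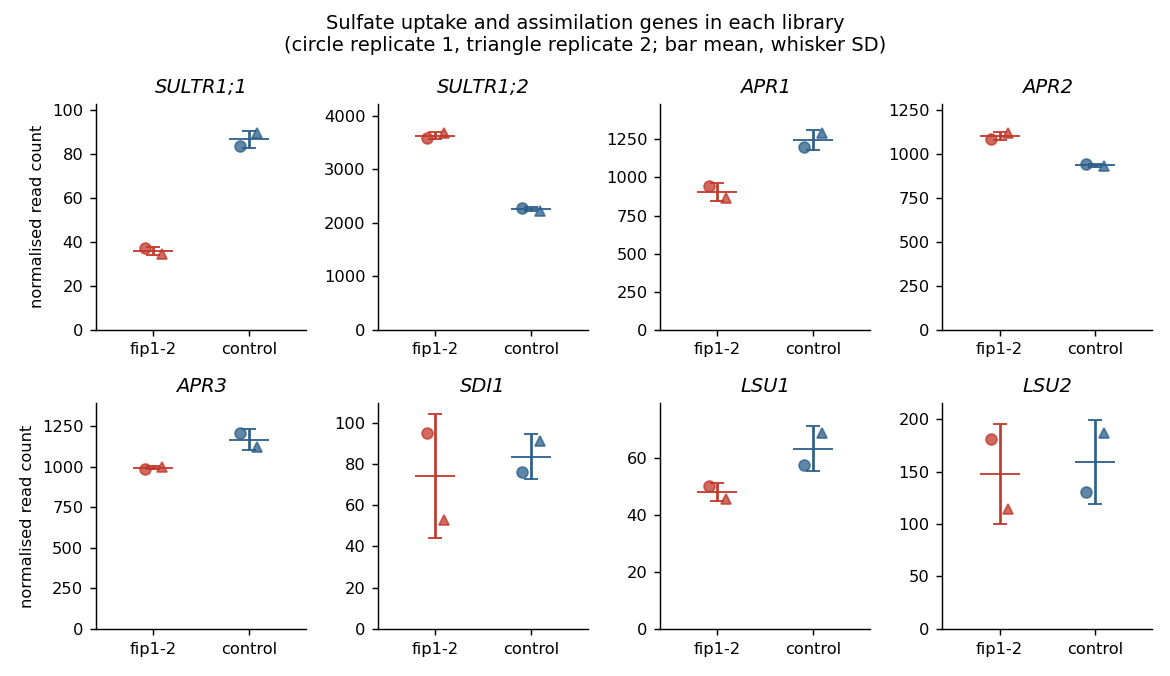
Normalised read count (vertical axes, each from 0) of the 8 genes in the fip1-2 (red) and control (blue) libraries, with circles for replicate 1, triangles for replicate 2, bars for the mean and whiskers for the SD of 2 libraries. SULTR1;1 is lower and SULTR1;2 higher in both fip1-2 libraries, while for SDI1 and LSU2 the libraries of the groups overlap.

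The root uptake transporters changed in opposite directions. SULTR1;1, a high-affinity transporter known for strong induction in sulfur-starved roots, stood at 36.9 and 34.2 in the fip1-2 libraries, against 83.6 and 89.3 in the control libraries. Both fip1-2 libraries lay below both control libraries, and the gap was wide against the spread inside each group. Its level was 35.6 ± 1.86 in fip1-2 and 86.4 ± 4.04 in control (SD, n = 2 each), a log2 fold change of -1.24 ± 0.19 SE (limma adjusted p = 7.6e-05), or 2.35-fold lower. SULTR1;1 was the only one of the 8 genes to change by 2-fold or more, and 5.49% of the genes tested changed by more. It rested on few reads, 36 and 33 in fip1-2 and 87 and 92 in control.

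SULTR1;2, the high-affinity transporter that carries most root uptake when sulfate is plentiful, stood at 3577 and 3675 in the fip1-2 libraries, against 2278 and 2221 in the control libraries. Again no library of one group reached the other. The level was 3626 ± 69.3 in fip1-2 and 2249 ± 40.4 in control (SD, n = 2 each), with a log2 fold change of 0.69 ± 0.05 SE (limma adjusted p = 4.62e-08), or 1.61-fold higher. Its longest annotated transcript, 3185 bases, falls in class 10 of transcript length, whose median log2 fold change was 0.26. Once a trend with length and GC content was taken out, SULTR1;2 had a log2 fold change of 0.56 (limma adjusted p = 1.92e-07). SULTR1;1, in class 8 with a median of 0.06, then had one of -1.36.

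The balance between these transporters differed between the groups. Per kilobase of transcript, a scale that holds if reads fell along the whole transcript, on which the labels disagree, SULTR1;1 came to 1.39% and 1.26% of SULTR1;2 in the fip1-2 libraries, against 4.95% and 5.43% in the control libraries. The ratio in fip1-2 was 0.255 of that in control, and an exact two-sided permutation test over the 4 libraries gave p = 0.333, the smallest that 2 libraries against 2 allow. Since SULTR1;2 was by far the more abundant, the sum of both followed it, at 3614 and 3709 in fip1-2 and 2362 and 2310 in control. Both are genes of the root surface, and the summed root epidermis and root hair markers given above were higher in the same fip1-2 libraries. What part this has in the difference of either transporter was not tested.

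**Figure D2:**
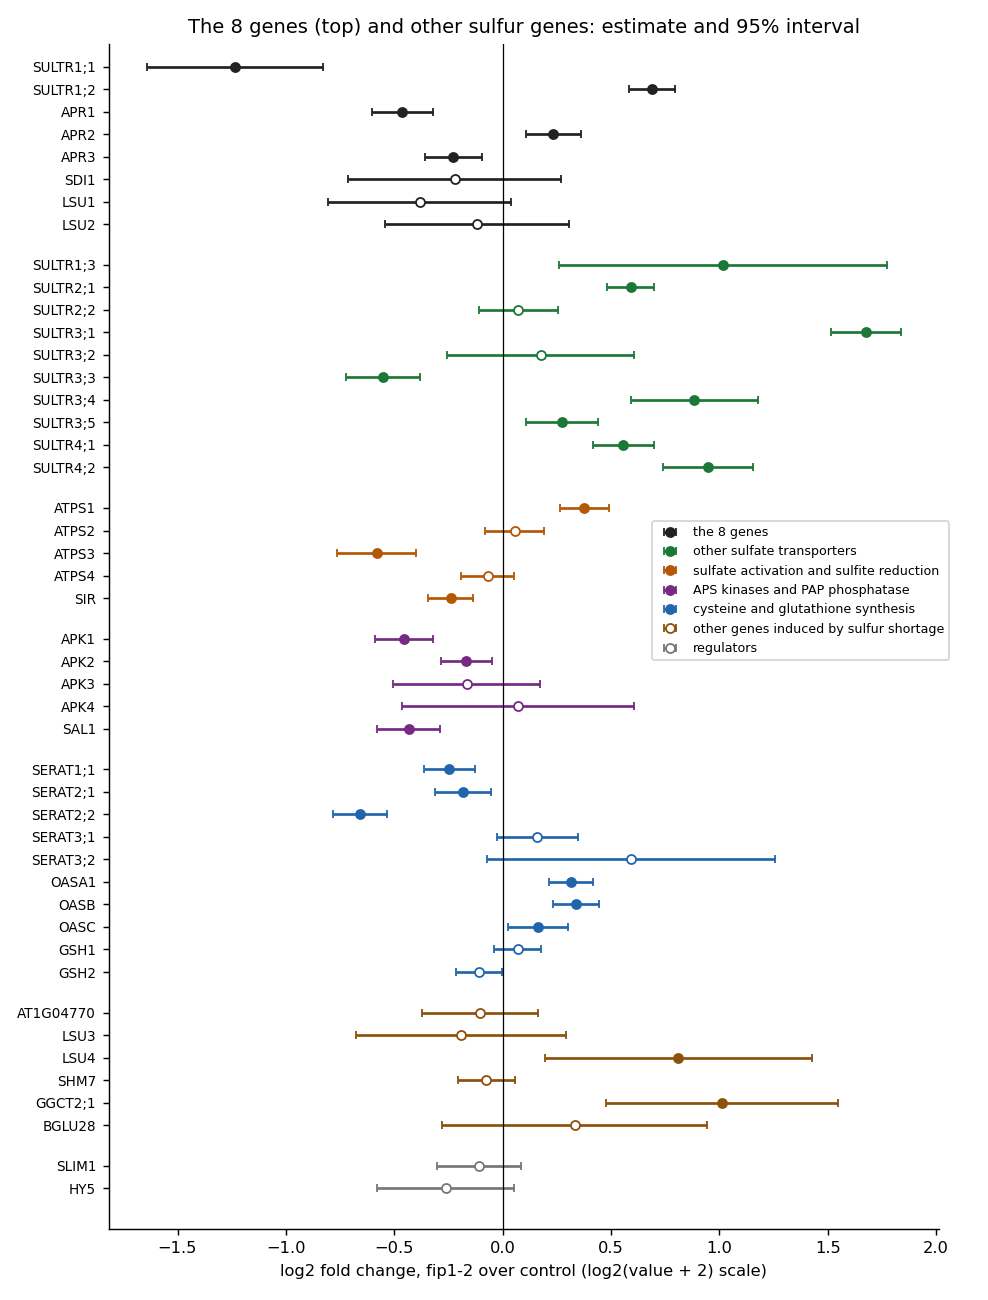
Log2 fold change, fip1-2 over control (horizontal axis), with its 95% interval for the 8 genes at the top and 38 other genes of sulfur metabolism below, coloured by list; filled points passed the threshold. The SULTR transporters lie mostly right of 0, from 0.07 to 1.68, apart from SULTR1;1 at -1.24 and SULTR3;3 at -0.55.

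The APS reductase genes encode plastid enzymes that reduce APS to sulfite. They differed less than the transporters and also split. APR1 stood at 944 and 865 in the fip1-2 libraries, against 1201 and 1292 in the control libraries. Both fip1-2 values were below both control values, and the log2 fold change was -0.46 ± 0.07 SE (limma adjusted p = 3.43e-05), or 1.38-fold lower. APR2, known as the isoform that gives most of the enzyme activity in Arabidopsis, stood at 1084 and 1118 in fip1-2, against 941 and 930 in control. The groups did not overlap, and the log2 fold change was 0.23 ± 0.06 SE (limma adjusted p = 0.00375), or 1.18-fold higher. APR3 stood at 990 and 1003 in fip1-2, against 1213 and 1122 in control. It was 1.17-fold lower without overlap, with a log2 fold change of -0.23 ± 0.06 SE (limma adjusted p = 0.00587). The call of APR3 was narrow: the adjusted p was 0.0526 with DESeq2 and 0.051 without control replicate 1, and over its alternatives it ran from 0.000691 to 0.0526.

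Changes of this size were common, since 57.6% of the genes tested changed by more than APR2 and 58.6% by more than APR3. Together the APR genes came to 3018 and 2985 normalised counts in fip1-2, against 3354 and 3344 in control, or 0.896 of the control level (exact two-sided permutation p = 0.333, the smallest possible here). Per kilobase of transcript, APR2 made up 33.7% and 35.1% of that total in the fip1-2 libraries, against 26.1% and 25.9% in the control libraries. APR1 made up 31.1% and 28.8% in fip1-2, against 35.3% and 38.2% in control. The share of APR3 overlapped between the groups, at 35.3% and 36.1% in fip1-2 and 38.6% and 35.9% in control. The control libraries thus held APR2 as the least abundant of the 3 isoforms, while in both fip1-2 libraries APR1 was the least abundant.

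In the TAIR10.1 annotation each APR gene overlaps a gene on the other strand. The library protocol mentions no strand marking, so in the overlap the reads of both genes cannot be told apart. The partner of APR3, the autophagy gene ATG8A (AT4G21980), stood at 251 and 279 in fip1-2, against 313 and 346 in control, and AT4G04614, which overlaps APR1, at 217 and 253, against 236 and 259. AT1G62170, on the other strand of APR2, had values of 2.08 or less in every library. A further annotated partner of APR2, AT1G08477, is not among the genes listed for the series and so has no values. SULTR1;1, SULTR1;2, SDI1, LSU1 and LSU2 overlap no other annotated gene. In the sense direction, no 50-base stretch of the longest transcript of any of the 8 genes recurs in that of another listed gene. This holds for the APR copies and LSU copies too. The opposite strand was not searched, so the overlaps above are not covered.

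The sulfur-shortage genes did not pass the test. SDI1, known as a repressor of glucosinolate synthesis under sulfur shortage, stood at 95.3 and 52.9 in the fip1-2 libraries, against 75.9 and 91.2 in the control libraries. The fip1-2 libraries lay on both sides of the control libraries, and the log2 fold change was -0.22 with a 95% interval from -0.71 to 0.27 (limma adjusted p = 0.436). LSU1 and LSU2 encode small proteins named for their response to low sulfur. LSU1 stood at 50.2 and 45.7 in fip1-2, against 57.6 and 68.9 in control. Its fip1-2 values were the lower ones in every pairing, but the log2 fold change of -0.38, with a 95% interval from -0.80 to 0.04, did not pass (limma adjusted p = 0.115). LSU1 and LSU2 belong to length class 1, whose median was -0.25, and once the trend with length and GC was taken out LSU1 was at -0.11 (limma adjusted p = 0.666). LSU2 stood at 181 and 114 in fip1-2, against 131 and 187 in control. These groups overlapped, with a log2 fold change of -0.12 and a 95% interval from -0.54 to 0.30 (limma adjusted p = 0.635).

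These intervals do not show that the genes were equal. They rest on the limma SE, which takes part of its variance from other genes of similar level. A 2-fold rise (a log2 fold change of 1) lies outside the 95% interval of SDI1, LSU1 and LSU2 alike. For SDI1 and LSU2, whose own replicates differed more than those of the average gene, such an interval may be too narrow. The SE was 0.23 for SDI1, 0.20 for LSU1 and 0.20 for LSU2, though their replicates agreed to unlike degrees. The difference of the fip1-2 replicates, as a chi-square of their reads that counting error alone would put near 1, was 12.2 for SDI1 and 15.5 for LSU2, against a mean of 2.72 over 20712 genes, and for LSU2 in control it was 9.74. For LSU1 this chi-square was 0.261 in fip1-2 and 0.899 in control. LSU1 had 44 to 71 reads per library, and SDI1 had 51 to 94. In fip1-2, replicate 1 was above replicate 2 for SDI1, LSU1 and LSU2, and in control replicate 1 was below replicate 2 for all of them. Without fip1-2 replicate 1 the log2 fold change of SDI1 was -0.63 (adjusted p = 0.0288), and without fip1-2 replicate 2 it was 0.19 (adjusted p = 0.471). That of LSU2 was -0.38 without control replicate 1 (adjusted p = 0.047) and 0.14 without control replicate 2, and -0.45 and 0.21 without fip1-2 replicates 1 and 2. Over its alternatives the adjusted p ran from 0.0288 to 0.785 for SDI1, from 0.0999 to 0.666 for LSU1 and from 0.047 to 0.801 for LSU2.

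**Figure D3:**
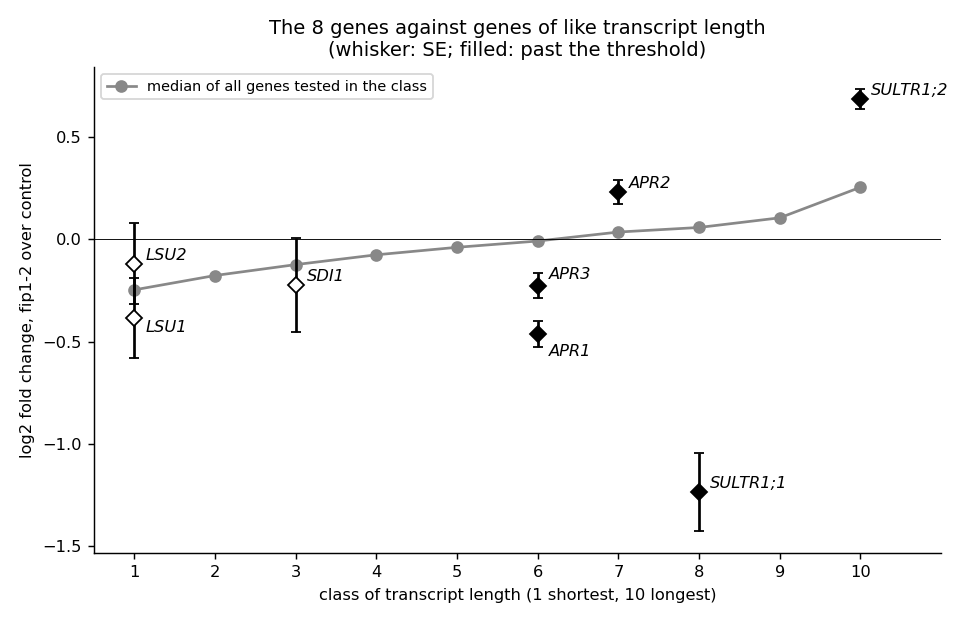
Log2 fold change, fip1-2 over control, of the 8 genes (diamonds, whiskers SE, filled where called) by class of transcript length (1 shortest, 10 longest), with the median of all genes tested in each class (grey). LSU1, LSU2 and SDI1 lie near the grey line, whose medians for their classes are -0.25 and -0.12, while SULTR1;1 at -1.24 lies far below the 0.06 of its class.

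Levels were compared between genes as normalised counts per kilobase of the longest annotated transcript, with the same reservation about the labels. On that scale SULTR1;2 led in both groups, at 1138 ± 21.7 in fip1-2 and 706 ± 12.7 in control (SD, n = 2 each). The APR genes came next, at 467 to 558 in fip1-2 and 456 to 654 in control as group means. In fip1-2 the order was APR3, APR2 and APR1, with APR3 (554 and 562) only just above APR2 (529 and 546). In control APR3 (679 and 629) and APR1 (621 and 668) overlapped, and APR2 (459 and 454) was below both. LSU2 followed, at 180 ± 57.7 in fip1-2 and 193 ± 48.7 in control. LSU1 (70.9 and 64.5) and SDI1 (78.5 and 43.6) overlapped in fip1-2, and in control LSU1 (81.4 and 97.3) was above SDI1 (62.5 and 75.2). SULTR1;1 was lowest in every library, at 15.1 ± 0.787 in fip1-2 and 36.6 ± 1.71 in control.

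The other sulfate transporter genes were mostly higher in fip1-2. Tests called 8 of the 10, with 7 higher and 1 lower, a share of 80% with a median log2 fold change of 0.57, against 53.8% and -0.0043 over all genes tested. SULTR3;1, a transporter of the chloroplast envelope, stood at 802 and 792 in fip1-2, against 249 and 248 in control, the largest rise of the list (1.68 ± 0.08 SE on the log2 scale, limma adjusted p = 3.76e-10). The genes of the vacuolar membrane transporters that release stored sulfate both rose. SULTR4;2 stood at 553 and 458 in fip1-2, against 264 and 255 in control, and SULTR4;1 at 1169 and 1079, against 782 and 744. SULTR2;1, a vascular transporter, stood at 3625 and 3855 in fip1-2, against 2482 and 2484 in control. SULTR3;3 was the one that fell, at 354 and 377 in fip1-2, against 518 and 555 in control. SULTR1;3, the phloem member of the high-affinity group, was weakly expressed at 36.9 and 21.8 in fip1-2, against 9.61 and 17.5 in control (1.02 ± 0.35 SE on the log2 scale, limma adjusted p = 0.0253), and lost its call under 5 alternatives, with an adjusted p of up to 0.246. SULTR1;1 thus stood with SULTR3;3 as the only falls among the 12 SULTR genes, of which 8 rose. Over all genes tested 27% rose and 26.8% fell. With the trend of length and GC taken out, the 10 other transporters had a median of 0.46, with 7 higher and 1 lower again called. SULTR3;1 was then at 1.49.

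Enzymes around the reductase step changed by less than 2-fold and in both directions. Among the genes for ATP sulfurylase (ATPS1 to ATPS4, listed as APS1 to APS4 in the reference) and sulfite reductase (SIR), 1 rose, 2 fell and 2 did not pass, so 60% were called, near the 53.8% over all genes. ATPS1, the most abundant ATP sulfurylase gene, stood at 9271 and 8658 in fip1-2, against 6742 and 7056 in control (log2 fold change 0.38, limma adjusted p = 2.9e-05). ATPS3 stood at 383 and 351 in fip1-2, against 519 and 582 in control (-0.58, limma adjusted p = 4.62e-05), and SIR at 6063 and 6010, against 7013 and 7249 (-0.24, limma adjusted p = 0.000723). ATPS2 and ATPS4 had log2 fold changes of 0.06 and -0.07 and did not pass. Once the trend with length and GC was taken out, ATPS4 was at -0.26 and SIR at -0.50, both past the threshold.

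Of the APS kinase genes and SAL1, whose phosphatase removes the by-product of sulfation, 3 of 5 fell and none rose, with a median log2 fold change of -0.17. The share called, 60%, was near the 53.8% over all genes, and DESeq2 called 2 of the 5, as did the fits without control replicate 2 and without fip1-2 replicate 2. APK1 stood at 1000 and 969 in fip1-2, against 1286 and 1415 in control, and SAL1 at 760 and 735, against 955 and 1068. APK2 fell by 0.17 on the log2 scale, with an adjusted p of up to 0.118 over its alternatives, and APK3 and APK4, at -0.17 and 0.07, did not pass.

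The cysteine step takes serine acetyltransferase, which makes O-acetylserine, and the thiol lyase. Of the 10 genes for cysteine and glutathione synthesis 3 rose and 3 fell, 60% called, which is near the 53.8% over all genes, and 4 were called with DESeq2 or without fip1-2 replicate 1. Of 5 acetyltransferase genes 3 fell and none rose, 60% called against 53.8% over all genes, of which 26.8% fell. The mitochondrial SERAT2;2 led, at 959 and 922 in fip1-2, against 1448 and 1523 in control. Its log2 fold change was -0.66 ± 0.06 SE (limma adjusted p = 3.72e-07). SERAT1;1 was at -0.25, and SERAT2;1 at -0.18 lost its call under 4 alternatives, with an adjusted p of up to 0.176. SERAT3;1 and SERAT3;2, at 0.16 and 0.59, were higher in both fip1-2 libraries but did not pass. All 3 thiol lyase genes rose, while 27% of all genes did. The cytosolic OASA1 stood at 11185 and 11096 in fip1-2, against 8893 and 9007 in control, and the plastid OASB at 2880 and 2872, against 2292 and 2253. The mitochondrial OASC, at a log2 fold change of 0.16, passed narrowly (limma adjusted p = 0.0459, up to 0.291 over its alternatives). The glutathione synthesis genes GSH1 and GSH2, at 0.07 and -0.11, did not pass.

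The SULTR genes above were not sorted by their response to sulfur shortage. The other listed genes known to be induced by sulfur shortage also showed no shared rise. Among 6 such genes 2 rose and none fell, 33.3% called against 53.8% over all genes. GGCT2;1, of glutathione breakdown, stood at 60.4 and 47.7 in fip1-2, against 30.7 and 21.4 in control (log2 fold change 1.01 ± 0.25 SE, limma adjusted p = 0.00343). LSU4, the annotated neighbour of LSU2, stood at 30.7 and 28.0, against 14.4 and 17.5 (0.81 ± 0.29 SE, limma adjusted p = 0.0279), and it lost its call under 5 alternatives, with an adjusted p of up to 0.218. Once the trend with length and GC was taken out, GGCT2;1 was at 1.20 and LSU4 at 1.09, both past the threshold. LSU3, the neighbour of LSU1, stood at 58.4 and 38.4 in fip1-2, against 50.9 and 58.2 in control, and did not pass. SHM7, a serine hydroxymethyltransferase gene, and BGLU28, a beta-glucosidase gene, had log2 fold changes of -0.08 and 0.33 without passing. The regulators SLIM1, which drives the low-sulfur response, and HY5, a light-signalling factor known to act on APR genes, had log2 fold changes of -0.11 (95% interval -0.30 to 0.09) and -0.26 (-0.58 to 0.05) and did not pass either.

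**Figure D4:**
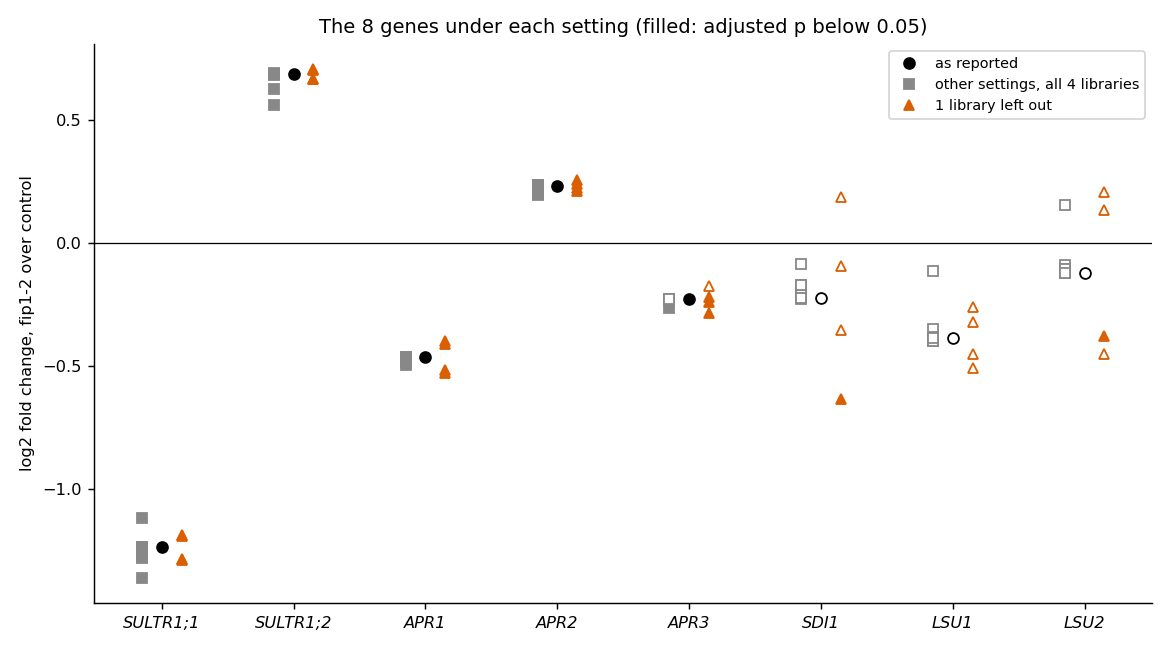
Log2 fold change, fip1-2 over control, of the 8 genes as reported (circles), under other settings with all 4 libraries (squares) and with 1 library left out (triangles); filled symbols passed an adjusted p of 0.05. SULTR1;1, SULTR1;2, APR1 and APR2 stay filled throughout, while SDI1 and LSU2 change sign with the library left out.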

How the data were processed

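The submitters' processing notes list HISAT2, HTSeq, edgeR, FastQC and CASAVA 1.4 without saying what each did. Not given in the sources used here: build, annotation and strand setting. The series text names poly(A) tag sequencing, while the extract protocol describes fragmented mRNA. Per their labels, the deposited values are normalised htseq-count read counts, a signal per gene. That they are counts scaled by 1 factor per library was inferred from the values alone. Of them 100% were whole multiples (within 1e-06) of the smallest value in their column, so whole reads were recovered. Depth is given in the report; depth and the spread between libraries together gave a median SE of 0.094 (log2).

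Genes with a mean of at least 10 were tested with limma 3.58.1 (variance trend, two-sided, Benjamini-Hochberg) in R 4.3.3 on log2(value + 2), with genotype as the only term. edgeR 4.0.16 on the recovered reads called 10731 genes, 10670 shared with limma, and DESeq2 1.42.0 called 7232. Sums and ratios were compared by exact permutation over libraries. Simulated data with known changes, in far fewer genes than were called here, were used to test the fits. They cannot show how the fits behave at the share of genes called here.

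The 8 genes, the pathway and marker lists and the tests were chosen with earlier results of these data known. Named are the 8 genes, FIP1 and up to 5 genes per pathway list with the smallest p. SULTR1;3, SERAT3;1, SERAT3;2, OASC, GSH1, GSH2, ATG8A and the other overlap partners were added after their values were seen. Marker genes named singly were also named after their values were seen. Names, transcript length and GC content come from the TAIR10.1 RefSeq annotation (99.2% of identifiers found; 55 of 63 listed names appear as spelled, the others under another symbol or, for AT1G04770, none). The replicates of each group differed beyond sampling noise, with a mean chi-square of 2.72 in fip1-2 and 2.97 in control, and count as separate libraries. Same-numbered libraries did not deviate together (r = -0.01 across 19931 genes).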

Additional observations from a re-analysis of the deposited data

How the results depend on the processing

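SULTR1;1, SULTR1;2, APR1 and APR2 kept their direction and their call under all 15 alternatives. The count of the 8 genes called was 5 in all but 2 of them, 4 with DESeq2 and 6 without fip1-2 replicate 1; without control replicate 1 LSU2 took the place of APR3. APR3 was at -0.23 with DESeq2 (adjusted p = 0.0526) and from -0.28 to -0.17 with 1 library left out. With 1 library left out SDI1 ran from -0.63 to 0.19 and LSU2 from -0.45 to 0.21, and LSU2 was at 0.16 once the trend with length and GC was taken out; beyond the libraries left out, the cause was not tested. The log2 difference of summed LSU1 and LSU2 ran from -0.46 to 0.076 with 1 library left out. Of the other shortage genes 2 were called; the count was 0 with a filter of 50, where 3 were tested, 1 after quantile normalization, 1 with DESeq2, and 1 to 2 with 1 library left out. Among other genes, signs turned with 1 library left out for ATPS4 (from -0.15 to 0.010), APK4 (from -0.066 to 0.21) and LSU3 (from -0.48 to 0.097), and for LSU3 also with the trend taken out (0.093). The count of all genes called ran from 7232 with DESeq2 to 11004. It was 11004 with the replicate block, against 10726 without it, where 5 of the 8 genes were again called; the libraries share only a number. SULTR1;1, SDI1 and LSU1 rest on under 100 reads per library, and with LSU2 they have the largest SE of the 8 genes.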
